A study of Rattus norvegicus with 2 samples.

Results

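Chemokines, interleukins and their receptors were read on 2 arrays of liver cDNA from diabetic rats, by taking every library spot whose gene symbol began with Ccl, Cxcl, Ccr or Cxcr and a number, or with Il and a number. The rule used the symbols alone and gave 119 probes of 112 genes, out of 17202 genes named on the array. By symbol, 32 genes were chemokines, 15 chemokine receptors, 33 interleukins and 32 interleukin receptors. Adult male Wistar rats were made diabetic by an injection of streptozotocin, a toxin of pancreatic beta cells, at 65 mg/kg after a 12 h fast, and diabetes was taken as a glycaemia above 200 mg/dl at 72 h. The treated rats then received the lupin seed protein γ-conglutin for 7 days, at 120 mg/kg in 0.9% NaCl, and the control rats received the NaCl vehicle alone. All rats of both groups were diabetic, and no healthy rats were part of the comparison. RNA of 5 rats was pooled per treatment, so each treatment was 1 sample. On array 1 the γ-conglutin pool was labelled with Alexa647 and the vehicle pool with Alexa555, and array 2 carried the same pools with exchanged dyes. The arrays were technical repeats with mouse probe names, and no test over rats and no p-value could be made. Each ratio below is log2 of γ-conglutin signal over vehicle signal, given per array or as the mean ± SD over the 2 arrays (n = 2). That SD also holds any dye difference of the probe. In whole-liver RNA, fewer cells of a type and less RNA per cell cannot be told apart.

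Chemokines are small secreted proteins that draw leukocytes along a gradient, and they act through G protein-coupled receptors on the leukocyte surface. Interleukins are secreted signals between leukocytes, and many also act on hepatocytes. Most interleukin receptors pair a private chain with a shared chain and signal through Janus kinases and STAT proteins, while the interleukin 1 family signals through the adaptor Myd88 to NF-κB. In liver, interleukin 6 induces the acute phase proteins, and resident macrophages, called Kupffer cells, are a known source of interleukin 1, interleukin 6 and several chemokines.

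NF-κB is the textbook activator of Cxcl1, Cxcl2 and Il6, so the promoters of the rat genes were searched for an NF-κB-type motif, GGNNTTTCC, and for the TATA-box letters TATAAA, on both strands of the 250 bases before the annotated start. The letters of the 2 motifs cannot overlap. RefSeq promoters of build GRCr8 were matched for 82 of the 112 genes. The NF-κB-type motif was present in 1736 of 33469 promoters (5.19%), and in 14 of the 82: Ccl20, Ccl9, Ccr3, Cxcl1, Cxcl2, Cxcl6 (the rat name of the array's Cxcl5), Cxcl9, Cxcl10, Cxcl11, Il12a, Il1rn, Il36a (the array's Il1f6), Il6 and Il9. TATAAA was present in 4328 promoters (12.9%) and in 22 of the 82. The 120 bases before the start are shown for 5 genes, Cxcl1 and Il9 because they stand near opposite ends of the ratios, and Cxcl2, Cxcl9 and Il6 because they are well known inflammatory genes. They were chosen after their ratios were seen. The capitals mark the NF-κB-type motif on either strand. The sequences run 5′ to 3′ towards the start. Cxcl1 is from chr14:17479322-17479441, Cxcl2 from chr14:17467256-17467375 and Il6 from chr4:5894576-5894695, all on the minus strand. Cxcl9 is from chr14:16007046-16007165 and Il9 from chr17:8116908-8117027, both on the plus strand.
Cxcl1: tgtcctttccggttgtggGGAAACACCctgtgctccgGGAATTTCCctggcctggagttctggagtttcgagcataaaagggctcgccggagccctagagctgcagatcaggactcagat
Cxcl2: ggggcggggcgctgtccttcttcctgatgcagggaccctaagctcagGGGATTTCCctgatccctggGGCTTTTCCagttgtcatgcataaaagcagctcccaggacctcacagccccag
Cxcl9: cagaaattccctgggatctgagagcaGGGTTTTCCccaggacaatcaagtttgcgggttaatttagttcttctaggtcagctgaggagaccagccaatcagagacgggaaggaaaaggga
Il6: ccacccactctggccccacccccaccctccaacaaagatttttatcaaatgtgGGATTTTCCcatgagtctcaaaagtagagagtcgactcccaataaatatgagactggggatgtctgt
Il9: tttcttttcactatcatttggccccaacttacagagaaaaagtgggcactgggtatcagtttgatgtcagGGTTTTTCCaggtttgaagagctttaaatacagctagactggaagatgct

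Cxcl1 and Cxcl2 each held 2 matches in this window, and Cxcl9, Il6 and Il9 each held 1. The matches of Cxcl1 began 102 and 83 bases before the start and those of Cxcl2 73 and 53 bases, against 94 for Cxcl9, 67 for Il6 and 50 for Il9. Since the ratios were used to choose the genes, they are given as a description only. The mean log2 ratio was 0.28 ± 0.12 for Cxcl1, 0.09 ± 0.65 for Cxcl2, 0.09 ± 0.72 for Cxcl9, 0.10 ± 0.13 for Il6 and -0.35 ± 0.35 for Il9.

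The probes of all 112 genes passed the filter, a signal exceeding the local background by 2 SD in 1 or more channels of each array. That filter is lax, since 49.2% to 77.5% of the empty spots also passed it in a single channel. The stricter limit, the 95th percentile of empty spots in every channel, was met by 115 of the 119 probes and missed by those of Cxcl16, Il4i1, Il15ra and Il7r. No member spot was saturated. Library spots had a median raw intensity of 1683 in Alexa555 and 1287 in Alexa647 on array 1, and of 1641 and 1179 on array 2. The median library spot was thus brighter in Alexa555 on both arrays. A signal brighter in Alexa555 before normalization is therefore not particular to a gene. Brightness is given as the percentile of a probe among all library probes. It was 59.8 in the median gene of the set and 72.9 in the median interleukin receptor, against 49.4 in the median chemokine receptor. The brightest were the probes of the monocyte chemokine Ccl7 (percentile 99.4), Il20 (98.9), the decoy receptor Il13ra2 (98.2) and Cxcl1 (98.1). Brightness also depends on the probe, so it does not rank transcripts.

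**Figure D1:**
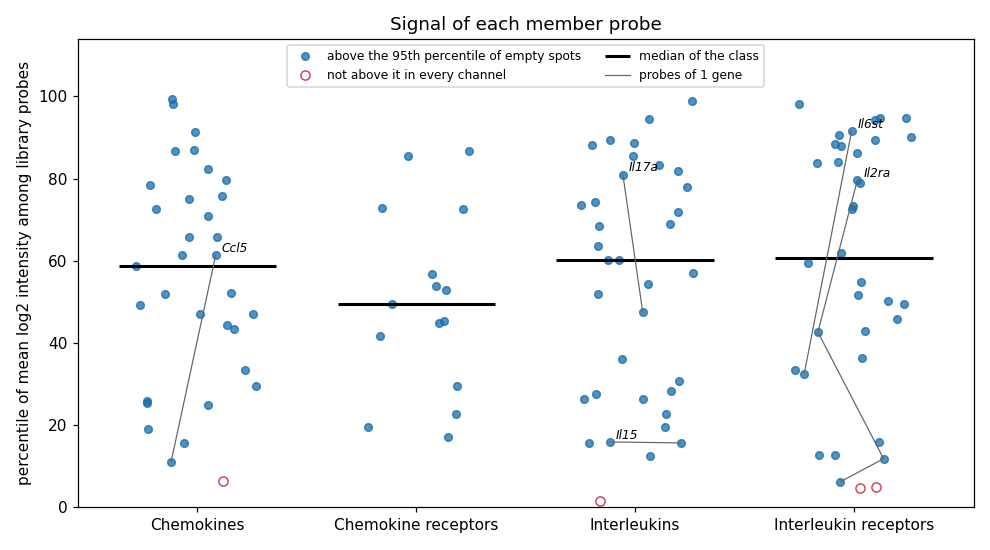
Brightness of the 119 member probes, as the percentile of mean log2 intensity among all library probes (y axis), by class (x axis). Each point is a probe, open red points are the 4 probes below the empty-spot limit in some channel, black bars are class medians over probes, and lines join probes of 1 gene. Probes of Ccl5, Il17a, Il2ra and Il6st lie far apart, while the pair for Il15 lies together at 15.7 and 15.9.

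Markers of the labelled tissue were not uniformly bright. Of 9 hepatocyte marker genes measured, the albumin gene Alb reached percentile 93.5 while Apob, the main apolipoprotein of liver lipoproteins, lay at 9.43, and the list median was 56.3. The median was 45.2 for 9 macrophage, 50.5 for 10 lymphocyte and 33.7 for 7 neutrophil marker genes. All 9 hepatocyte and all 9 macrophage genes were above the 95th percentile of empty spots, as were the 10 lymphocyte genes and 6 of the 7 neutrophil genes, all but Itgam. Among genes of the set, 5 had more than 1 probe, 12 probes in all. Il6st, which encodes gp130, the shared chain of the interleukin 6 family, had probes at percentiles 32.5 and 91.6. Ccl5, which encodes RANTES, had a dim probe and a brighter one at 61.4, the latter named for a pseudogene record. Il17a had 47.5 and 81.0, the brighter named for a CTLA-8 clone. The 4 probes of Il2ra, the alpha chain of the interleukin 2 receptor, ran from 6.24 to 79.7, and 3 of them were named for intron 3, 4 and 6 sequence. Each value is therefore that of the probe carrying the name. For these 5 genes the brightest probe stands for the gene.

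No member differed by 1.5-fold in the same direction on both arrays, in either direction, and the same was true of all 17157 named genes past the filter (0%). At the lower limit of 0.32 on the log2 scale on each array, 1 of the 112 genes, Il13, was lower with γ-conglutin, against 0.286% of all genes, and 0 were higher, against 0.00583%. The median of the mean log2 ratios was 0.03 over the 112 genes and 0.01 over all genes, and 68 of the 112 were above 0, as were 9245 of the 17157. The class medians were 0.03 for chemokines, -0.01 for chemokine receptors, 0.03 for interleukins and 0.03 for interleukin receptors. On arrays 1 and 2 the interleukin medians were 0.06 and 0.05, but the interleukin receptor medians were -0.06 and 0.12 and the chemokine receptor medians 0.03 and -0.08. The sign of the chemokine receptor median turned with the authors' deposited values. With 1 pool per treatment these values describe the pools and not rats in general.

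**Figure D2:**
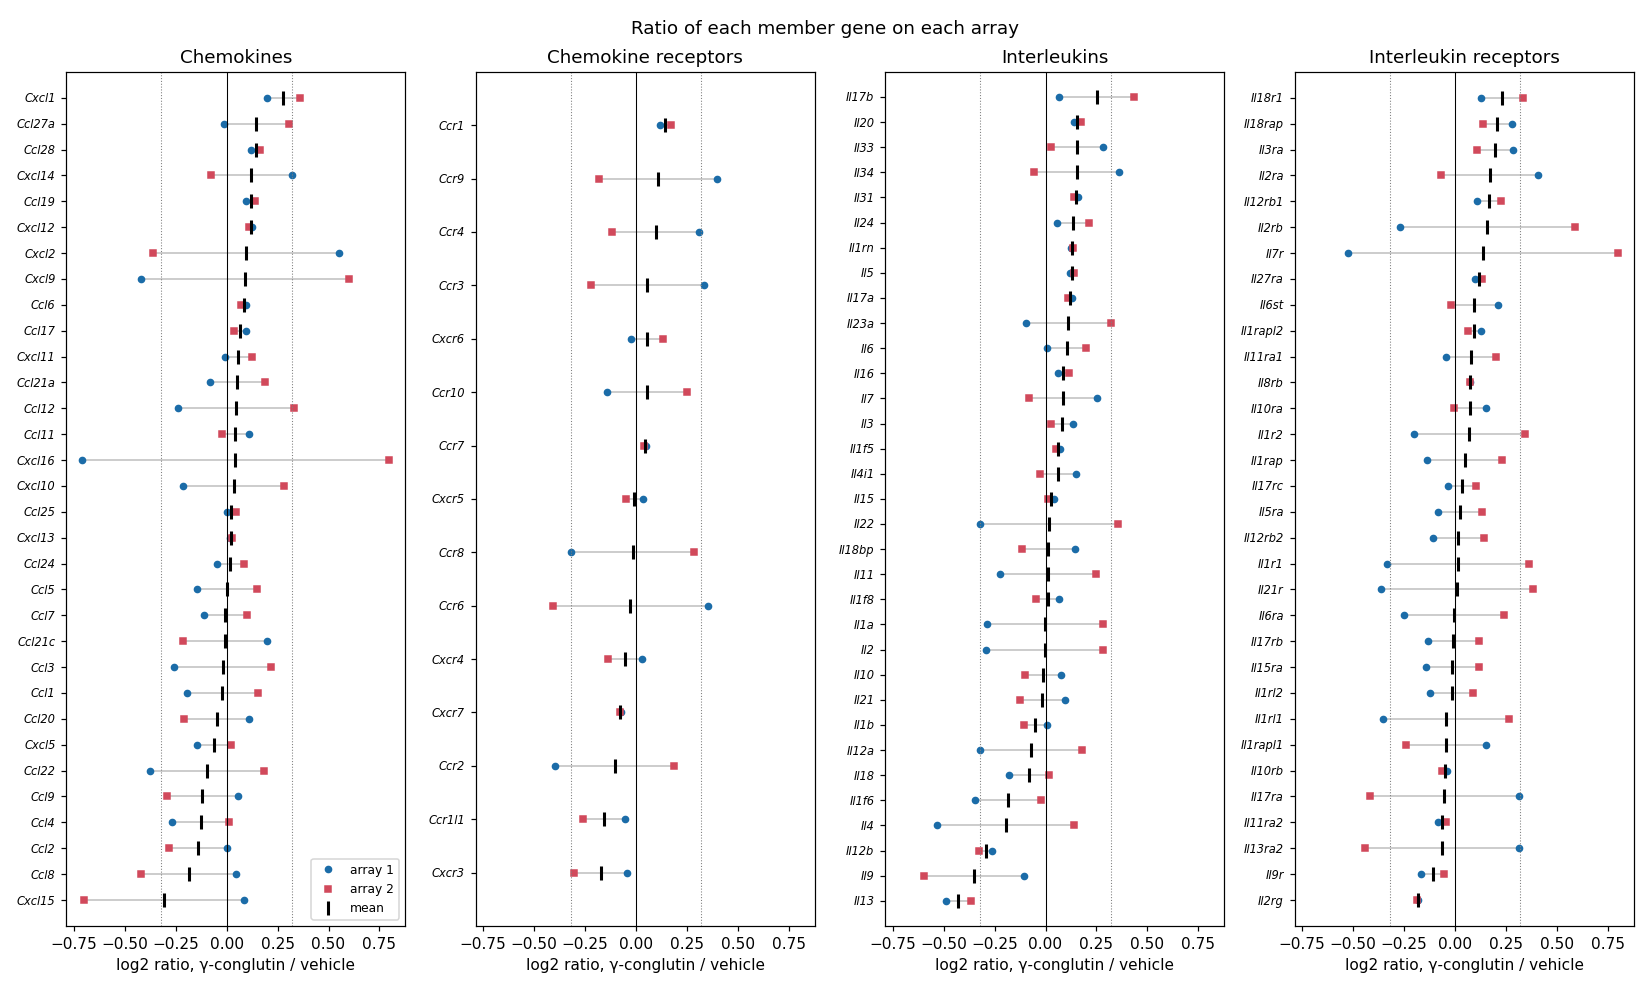
Log2 ratio of γ-conglutin over vehicle (x axis) for each of the 112 genes, by class and ordered by the mean. Blue circles are array 1, red squares array 2, black bars the mean, and dotted lines mark 0.32 and -0.32. Il13 is the only gene with both arrays beyond a dotted line on the same side.

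The sign of the ratio was the same on both arrays for 41 of the 112 genes, against 32.3% of all genes. Both arrays were positive for 30 genes (17.1% of all genes) and both negative for 11 (15.2% of all genes). Interleukins had the same sign for 17 of 33, chemokines for 8 of 32, chemokine receptors for 5 of 15 and interleukin receptors for 11 of 32. All 8 such chemokines were positive on both arrays. Between the arrays, Pearson's r across the 112 genes was -0.50 (Spearman's rho -0.47), and across all genes r was -0.45. One dye was brighter by 0.32 on both arrays for 8 of the 112 genes, against 3.56% of all genes. The r was -0.65 within chemokines, -0.64 within chemokine receptors, -0.67 within interleukin receptors and -0.03 within interleukins. These points share both arrays and both dyes, and are not replicates. A negative r means that a gene's ratio tended to follow the dye and not the pool.

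**Figure D3:**
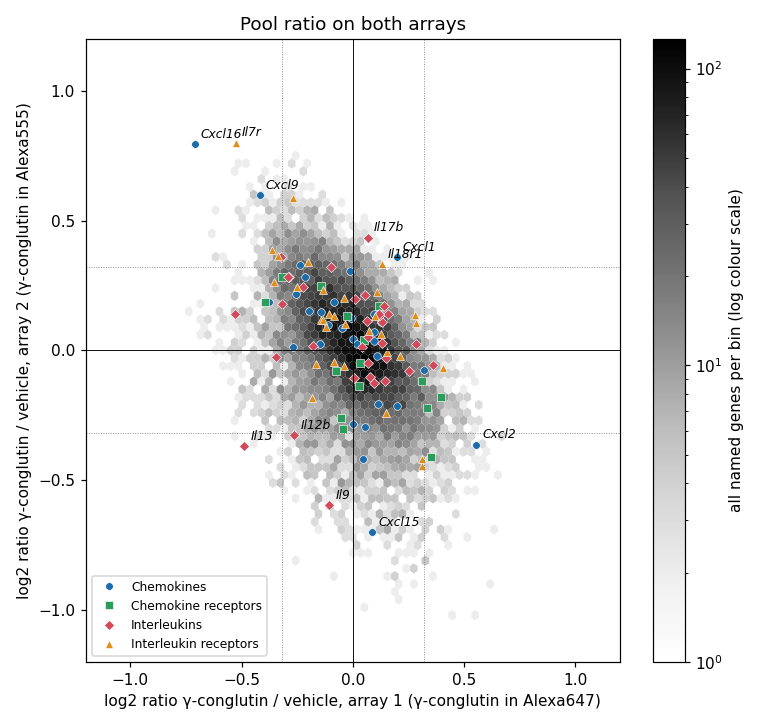
Log2 ratio of γ-conglutin over vehicle on array 1 (x axis) against array 2 (y axis) for the 112 genes by class, over all named genes as grey hexagons on a log colour scale. Dotted lines mark 0.32 and -0.32. Most points run from upper left to lower right, the direction of a dye difference, and Il13 and Il12b lie at the lower left.

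Interleukin 13 is a type 2 cytokine of helper T cells and innate lymphoid cells, known for effects on fibrosis and glucose output in liver. Its signal over background on array 1 was 8442 intensity units in the γ-conglutin pool and 13199 in the vehicle pool, and on array 2 it was 8186 and 8688. The γ-conglutin pool was thus dimmer on both arrays, although by little on array 2 before normalization. After normalization the log2 ratios were -0.49 and -0.37 (mean -0.43 ± 0.08), at percentile 0.361 of all genes. With a separate loess for every print-tip block the values were -0.29 and -0.54, so that array 1 no longer reached 0.32, and with the authors' deposited net intensities they were -0.29 and -0.52. The mean lay between -0.43 and -0.39 over the settings that used both arrays. Its receptor on the array was Il13ra2, which binds interleukin 13 without the usual signalling and had opposite ratios of 0.31 and -0.44. Il13 lies between Il4 and Il5 in the type 2 cytokine cluster of the rat genome, in the gene order of GRCr8. Its neighbours did not follow it. Il4 had ratios of -0.53 and 0.14 (mean -0.19 ± 0.48), and Il5, the eosinophil growth factor, had 0.12 and 0.14 (mean 0.13 ± 0.02). With print-tip loess Il5 had -0.05 and 0.24.

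Ligands of the shared gamma chain receptors, which support T and B cells, included the next lowest interleukin. Il9, a growth factor of mast cells and T cells, had a signal of 16217 in the γ-conglutin pool and 17796 in the vehicle pool on array 1, and 11368 and 15334 on array 2. The γ-conglutin pool was dimmer on both arrays, and the ratios were -0.11 and -0.60 (mean -0.35 ± 0.35). On array 1, however, Il9 had 0.00 with print-tip loess, 0.02 with the deposited net intensities and 0.17 with median centring. Its receptor gene Il9r had -0.17 and -0.05 (mean -0.11 ± 0.08). Il2rg, which encodes the shared gamma chain itself, had -0.18 on each array. Both spots lay in row 6 of block 23, in a run of 4 neighbours with Il1rap (mean 0.05 ± 0.26) and Il10rb (mean -0.05 ± 0.02). The means of the other ligands of this group, Il4 included, were closer to 0, although on array 1 Il2, Il4 and Il7 lay further from 0 than Il9. Il2 had -0.29 and 0.28, Il7 0.25 and -0.08, Il15 0.04 and 0.01, and Il21 0.10 and -0.13. Of the receptor chains, Il2ra had 0.41 and -0.07 at its brightest probe, Il2rb -0.27 and 0.59 and Il21r -0.36 and 0.39. Il7r, at 7.2 to 70.8 intensity units over background and not above empty spots, had -0.53 and 0.80. Of the 13 genes of this group, 9 had opposite signs on the arrays, 3 were negative and 1 positive on both. Over all genes 32.3% had the same sign on both arrays, 15.2% negative and 17.1% positive.

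The interleukin 12 family drives type 1 helper T cells and interferon gamma. Il12b, the p40 chain shared by interleukin 12 and interleukin 23, had signals of 13091 in the γ-conglutin pool and 16532 in the vehicle pool on array 1, and 12696 and 14249 on array 2. Its ratios were -0.26 and -0.33 (mean -0.29 ± 0.04), lower on both arrays and short of 0.32 on array 1. Its partner chains had opposite signs on the arrays, Il12a with -0.32 and 0.18 and Il23a with -0.10 and 0.32. The receptor gene Il12rb1 had 0.11 and 0.23 (mean 0.17 ± 0.08), opposite in direction to Il12b, and Il12rb2 had -0.11 and 0.14. With print-tip loess Il12rb1 had -0.06 and 0.39, so its direction on array 1 depended on the setting.

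The interleukin 1 family and its receptors were the largest group, with 18 genes. Of these, 6 were positive and 1 negative on both arrays, against 17.1% and 15.2% of all genes. The highest were both chains of the interleukin 18 receptor, through which interleukin 18 acts on T cells and natural killer cells. Il18r1 had signals of 28563 in the γ-conglutin pool and 24156 in the vehicle pool on array 1, and 26718 and 21751 on array 2. Il18rap had 12927 and 11569 on array 1 and 13379 and 10616 on array 2. The γ-conglutin pool was brighter on both arrays for both genes. The ratios were 0.13 and 0.33 (mean 0.23 ± 0.14) for Il18r1 and 0.28 and 0.14 (mean 0.21 ± 0.10) for Il18rap. Both spots lay side by side in row 6 of block 47. With loess within print-tip blocks the means were 0.18 and 0.14, and array 1 then gave -0.10 for Il18r1. Under median centring the arrays had opposite signs, 0.54 and -0.12 for Il18r1 and 0.46 and -0.09 for Il18rap. In the rat gene order, Il1r1, Il1rl2, Il1rl1, Il18r1 and Il18rap are adjacent protein-coding genes, and the first 3 did not share the direction. Il1r1, the signalling interleukin 1 receptor, had -0.33 and 0.36, Il1rl1, the interleukin 33 receptor, -0.35 and 0.26, and Il1rl2 -0.12 and 0.09.

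Means of the 9 ligands and antagonists of that family ran from -0.19 to 0.15. Il18 had -0.18 and 0.02, and Il18bp, its soluble inhibitor, 0.15 and -0.12. Il1b, the main secreted interleukin 1, had 0.01 and -0.11 (mean -0.05 ± 0.08), and Il1a -0.29 and 0.28. Il1rn, the receptor antagonist that liver also makes, had 0.12 and 0.14 (mean 0.13 ± 0.01), with signals of 3735 and 5559 in the γ-conglutin pool and 4261 and 3822 in the vehicle pool on arrays 1 and 2. Before normalization its γ-conglutin pool was thus dimmer on array 1 and brighter on array 2, as in the median library spot. With print-tip loess Il1rn had -0.04 and 0.26. Il1f6 and Il1f5, now named Il36a and Il36rn in rat, had -0.35 and -0.02 and 0.07 and 0.05. Il33, an alarm signal of damaged cells, had 0.28 and 0.03, from a probe whose description names a glycogenin, so its target is unsure. The decoy Il1r2 had -0.20 and 0.34, and the accessory chain Il1rap -0.14 and 0.23.

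The interleukin 6 family, which induces acute phase genes in hepatocytes, showed no common change. Il6 had 0.01 and 0.20 (mean 0.10 ± 0.13), from a dim probe at percentile 15.6. Its receptor gene Il6ra (Il6r in rat) had signals of 14048 and 15362 in the γ-conglutin pool and 17368 and 11594 in the vehicle pool. The Alexa555 channel was brighter on both arrays, as in the median library spot, and the ratios were -0.25 and 0.24. The bright probe of Il6st had 0.21 and -0.02 (mean 0.10 ± 0.16) and the dim one 0.17 and -0.12. Il11 had -0.22 and 0.25, Il11ra1 -0.04 and 0.20, Il31 0.16 and 0.14, and Il27ra 0.10 and 0.13. Of 17 acute phase genes measured, from a list of 21, 9 had a mean above 0, against 9245 of all 17157 genes. Their median was 0.00, and 0 were higher and 0 lower at 0.32 on both arrays, against 0.00583% and 0.286% of all genes. The highest was the ceruloplasmin gene Cp (0.17 ± 0.27) and the lowest Steap4 (-0.27 ± 0.48).

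Interleukin 10 restrains macrophages, and its relatives act on epithelium. Il10 had 0.08 and -0.10 (mean -0.01 ± 0.13), Il22, which acts on hepatocytes, -0.32 and 0.36, and Il10ra 0.15 and -0.01. Il20 had 0.14 and 0.17 (mean 0.16 ± 0.02) and Il24 0.06 and 0.21. With print-tip loess Il20 had -0.01 and 0.24 and Il24 -0.04 and 0.26. Their signals did not differ the same way before normalization. For Il20 the γ-conglutin pool had 47652 against 36065 on array 1 and 42610 against 44805 on array 2. In the interleukin 17 family, Il17b had 0.07 and 0.43 (mean 0.25 ± 0.26), the highest interleukin, with the γ-conglutin pool brighter on both arrays (21911 against 20332, and 35320 against 28646). Its mean ran from 0.15 with median centring to 0.26 with plain background subtraction. With median centring its arrays had opposite signs, 0.41 and -0.12. Il17a, the neutrophil-recruiting member, had 0.13 and 0.11 at its brighter probe and 0.38 and -0.04 at the other. The receptors Il17ra (0.31 and -0.42), Il17rb (-0.13 and 0.12) and Il17rc (-0.04 and 0.10) had opposite signs on the arrays in the main setting, although Il17rb was positive on both with print-tip loess. Il3ra, a receptor of the growth factor interleukin 3, had 0.28 and 0.11 (mean 0.20 ± 0.12), and Il3 had 0.13 and 0.03. Under median centring Il3ra had 0.50 and -0.15. Il4i1 is an enzyme gene named for its induction by interleukin 4, and its probe was the dimmest of the set, at 2.8 to 8.0 intensity units over background. It had 0.15 and -0.03, against 0.74 and 0.55 with the authors' deposited net intensities.

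Among the chemokines, Cxcl1 was the highest. It encodes the main neutrophil attractant of rodents, which acts through Cxcr2 (listed here under its older name Il8rb, and so among the interleukin receptors). Its signal was 44192 in the γ-conglutin pool and 32763 in the vehicle pool on array 1, and 41517 and 37380 on array 2. The γ-conglutin pool was brighter on both arrays, and the ratios were 0.20 and 0.36 (mean 0.28 ± 0.12), at percentile 99.8 of all genes. The mean lay between 0.23 and 0.28 over the settings with both arrays. The single arrays moved more, with 0.17 and 0.36 under print-tip loess and opposite signs, 0.73 and -0.27, under median centring. In the main setting Cxcl1 did not reach 0.32 on array 1. The other ligands of the same receptor did not follow it. Cxcl2, whose gene is next to Cxcl1 in the rat gene order, had 0.55 and -0.36, and Cxcl5 -0.15 and 0.02. Cxcl15, described from mouse lung and without a matching rat symbol, had 0.09 and -0.70 (mean -0.31 ± 0.56), the lowest mean of the chemokines. Before normalization Cxcl15 was dimmer in the γ-conglutin pool on both arrays (1431 against 1769, and 1067 against 1237). The receptor Il8rb had 0.07 on each array, and 0.21 and -0.02 with print-tip loess.

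The interferon-induced ligands of Cxcr3, which attract activated T cells, all had a negative ratio on array 1 and a positive one on array 2. Cxcl9 had -0.42 and 0.60, Cxcl10 -0.21 and 0.28, and Cxcl11 -0.01 and 0.13. Cxcl9 signals were 2532 and 4030 in the γ-conglutin pool and 4294 and 1905 in the vehicle pool. The Alexa555 channel was thus brighter on both arrays, as in the median library spot. Their receptor gene Cxcr3 had -0.04 and -0.30 (mean -0.17 ± 0.18), the lowest mean of the chemokine receptors. Cxcl12, the homing signal for progenitor cells, had 0.13 and 0.11 (mean 0.12 ± 0.01), and its receptors Cxcr4 and Cxcr7 (Ackr3 in rat) had 0.03 and -0.14, and -0.08 on each array. Cxcl13, the B cell attractant, had 0.02 and 0.03, and -0.13 and 0.09 with print-tip loess.

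Ccl2 is the main attractant of monocytes into injured liver and acts through Ccr2. Its signals were 2654 and 3305 in the γ-conglutin pool and 3375 and 2937 in the vehicle pool. Its γ-conglutin pool was thus dimmer on array 1 and brighter on array 2, as in the median library spot. Its ratios were 0.00 and -0.28 (mean -0.14 ± 0.20). The other Ccr2 ligands were Ccl7 (-0.11 and 0.10), Ccl8 (0.04 and -0.42, mean -0.19 ± 0.33) and Ccl12 (-0.24 and 0.33), and Ccr2 itself had -0.40 and 0.19. In the main setting the 5 genes of this system had opposite signs on the arrays, while 32.3% of all genes had the same sign. For Ccl2 and Ccl8 that depended on values near 0 on array 1, and both were negative on both arrays with print-tip loess (Ccl2 -0.08 and -0.23, Ccl8 -0.10 and -0.39), with the net intensities and with median centring. Ccr1, a receptor of neutrophils and monocytes, had 0.12 and 0.17 (mean 0.14 ± 0.04), the highest mean of the chemokine receptors. Under median centring Ccr1 had 0.31 and -0.05. Its ligands Ccl3 (-0.26 and 0.22), Ccl4 (-0.27 and 0.01), Ccl5 (-0.14 and 0.15) and Ccl9 (0.05 and -0.29) had opposite signs, and Ccl6 had 0.09 and 0.07. Ccr1l1, a gene related to Ccr1 and described from mouse, had -0.05 and -0.26. Ccr1, Ccr3, Ccr1l1 and Ccr2 are adjacent in the rat gene order and did not share a direction, Ccr3 with 0.33 and -0.22.

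The remaining chemokine systems serve lymphoid tissue, skin and gut. The Ccr7 ligand Ccl19 had 0.10 and 0.14 and Ccr7 0.05 and 0.04. The other Ccr7 ligands had opposite signs on the arrays, Ccl21a with -0.08 and 0.19 and Ccl21c with 0.20 and -0.22. Ccl28 and Ccl27a, ligands of Ccr10, had 0.12 and 0.16 and -0.01 and 0.31. Ccl20, the chemokine ligand of Ccr6, had 0.11 and -0.21, and Ccr6 0.35 and -0.41. Ccl22 and Ccl17, ligands of Ccr4, had -0.38 and 0.19, and 0.10 and 0.03. Cxcl16, the ligand of Cxcr6, was the only member with a single dye brighter by 1.5-fold on both arrays (0.181% of all genes), with -0.71 and 0.80. Its probe was dim, at 28.7 and 131.9 intensity units over background in the γ-conglutin pool and 104.1 and 31.5 in the vehicle pool. The Alexa555 channel was brighter each time. The eosinophil attractants Ccl11 (0.11 and -0.02) and Ccl24 (-0.05 and 0.09) had opposite signs on the arrays. So did Ccl1 (-0.20 and 0.15) and its receptor Ccr8 (-0.32 and 0.28), Ccr9 (0.40 and -0.18), Ccr4 (0.31 and -0.12) and Ccr10 (-0.14 and 0.25). Means of the 32 chemokines ran from -0.31 to 0.28 and those of the 15 chemokine receptors from -0.17 to 0.14.

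Position on the array moved with the ratios. Across the 119 probes, a probe's dye ratio (log2 Alexa647 over Alexa555) had an r of 0.66 and a rho of 0.66 with the median dye ratio of the other probes in its print block, against 0.20 and 0.27 for the pool ratio. The probes share the arrays, so this is a description. Members filled 44 of the 48 blocks, 62 of them lay in printed row 4 and 30 in row 6, and 48 had another member in the next column. In blocks 1 to 16 the 33 members had medians of -0.21 on array 1 and 0.26 on array 2, and 5 had the same sign on both. In blocks 33 to 48 the 45 members had 0.12 and -0.02, and 18 had the same sign. The other probes there had medians of -0.14 and 0.11 in blocks 1 to 16 and 0.11 and -0.07 in blocks 33 to 48. The part of position in the ratios of single genes was not tested beyond the print-tip values given with them.

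**Figure D4:**
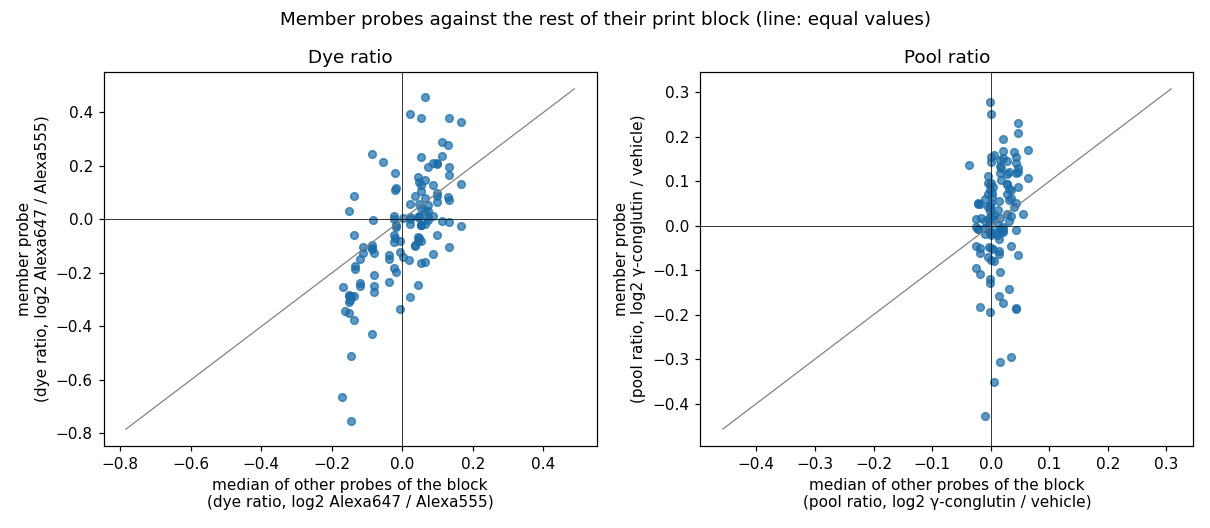
Each of the 119 member probes (y axis) against the median of the other probes in its print block (x axis), for the dye ratio (left, log2 Alexa647 over Alexa555) and the pool ratio (right, log2 γ-conglutin over vehicle), both as means of the arrays. The line marks equal values. Points on the left rise with their block (r = 0.66), and points on the right spread widely over block medians near 0 (r = 0.20).

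Other genes of the same pathways were taken from lists, which were drawn up with earlier results of these data known. For comparison, 9245 of all 17157 genes had a mean above 0. At 0.32 on both arrays 0.00583% of all genes were higher and 0.286% lower. Of 37 genes of signalling below the receptors, 34 were measured, 16 had a mean above 0, the median was -0.01, and 0 were higher and 0 lower at 0.32 on both arrays. The interleukin 1 receptor kinase gene Irak1 was highest (-0.11 and 0.55, mean 0.22 ± 0.46) and Rela, an NF-κB subunit gene, lowest (-0.54 and -0.19, mean -0.36 ± 0.25). Nfkbia, the NF-κB inhibitor gene that NF-κB itself induces, had 0.10 and 0.11, and Socs3, an inhibitor gene induced by interleukin 6, had 0.22 and -0.06. Of 38 other cytokines, atypical chemokine receptors and their receptors, 27 were measured, 19 had a mean above 0 and the median was 0.06. In that list 0 were higher and 1 lower at 0.32, Csf2ra, a receptor of the growth factor GM-CSF (-0.41 and -0.33, mean -0.37 ± 0.06). Tnf had -0.12 and 0.21, and Ifng, the highest of the list, had a mean of 0.21 ± 0.29.

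Markers of leukocytes had no member past 0.32 on both arrays in either direction, against 0.00583% of all genes higher and 0.286% lower. The macrophage median was 0.01 over 9 genes, the lymphocyte median -0.02 over 10 and the neutrophil median -0.06 over 7. Of these genes 6, 5 and 1 had a mean above 0, against 9245 of all 17157 genes. The neutrophil gene Camp had -0.17 and -0.55 (mean -0.36 ± 0.26), the lowest mean of these markers. Ngp was the highest neutrophil gene (0.01 ± 0.23). Macrophage genes ran from Cd74 (-0.18 ± 0.16) to Ptprc (0.13 ± 0.09). Ms4a1 was the highest lymphocyte gene (0.13 ± 0.42). The hepatocyte median was -0.05 over 9 genes, from Trf (-0.23 ± 0.39) to Cps1 (0.13 ± 0.26). Of the T cell genes, Cd3d had -0.30 and -0.32, the lowest mean of the lymphocyte genes. The others did not go with it: the mean was 0.01 for Cd3e and Cd3g, 0.04 for Cd4, -0.08 for Lck and -0.13 for Cd8a, and each of these 5 had opposite signs on the arrays. The part of leukocyte content in the ratios of the cytokine genes was not tested.

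**Figure D5:**
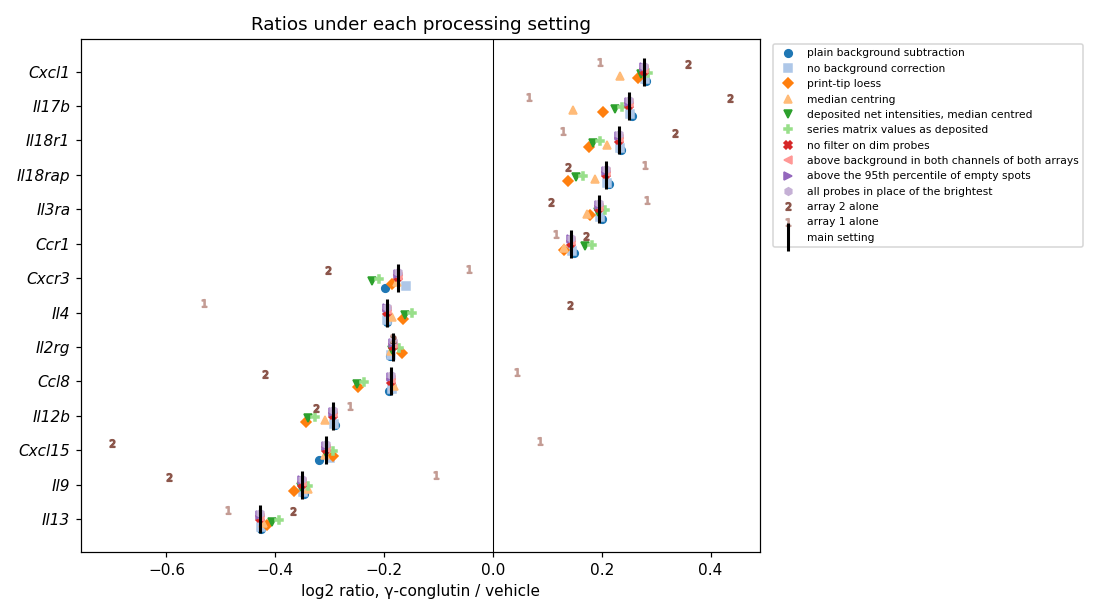
Mean of the log2 ratios, γ-conglutin over vehicle (x axis), for 14 named genes (y axis) under the main setting (black bar) and each alternative, with the digits 1 and 2 marking array 1 alone and array 2 alone. The settings with both arrays stay close to the black bar, from -0.43 to -0.39 for Il13 and from 0.23 to 0.28 for Cxcl1, while the single arrays of Cxcl15, Il4 and Ccl8 fall on both sides of 0.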

How the data were processed

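Each spot's mean raw intensity, mean background intensity, background SD and net intensity were deposited for both dyes, per the file headers. The deposited ratio is the net intensity of Alexa555 over that of Alexa647. The deposited series matrix holds log2 values, which were found to be log2 of that ratio. How the authors scaled the Alexa647 net intensity is not stated in the sources used.

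Background was corrected from the raw and background intensities by normexp (offset 50), then a global loess was fitted to each array with weight 0 for 231 Gapdh control and 1235 empty spots (limma 3.58.1, R 4.3.3). The sign was turned so that a positive ratio is higher in the γ-conglutin pool. Repeat spots of a probe were averaged, and a probe had to exceed the background by 2 SD in 1 or more channels of each array. A gene took its brightest probe, which left 17157 named genes. Tables and figures were made in Python 3.11.15 (numpy 2.4.6, scipy 1.17.1, pandas 2.3.3, matplotlib 3.10.9). The steps were tested on simulated data.

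The members, lists and panel were chosen with earlier results of these data known. Named genes were those past 0.32 on both arrays, the 3 highest, lowest and brightest of each class, genes with several probes, genes with 1 dye brighter by 1.5-fold, a panel of 32 genes and the extremes of each list. Of the panel, 30 were measured, and the others were not analysed here. The other genes were named after their values were seen, to fill in the receptor systems. Not every gene of each system is given. Of the 112 symbols, 99 are current rat symbols in the RefSeq GRCr8 table, 7 are synonyms and 6 had no match. Those without a match were Ccl8, Ccl21a, Ccl21c, Ccl27a, Cxcl15 and Il11ra2. In all 12 alternatives were compared. The number of arrays limits the precision.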

Additional observations from a re-analysis of the deposited data

How the results depend on the processing

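Of the 58 named member genes, 49 kept 1 sign of the mean over the 10 alternatives with both arrays. Alternatives that only changed which probes were kept could not move the mean of a gene with 1 probe. A mean over exchanged dyes can also hold while a single array changes sign, so this count does not measure how stable the arrays were. Il13 was the member lower at 0.32 in the main setting, and the count fell to 0 with print-tip loess, the deposited net intensities and the series matrix values (0.262%, 0.647% and 0.554% of all genes). The count higher at 0.32 was 1 (Il4i1, a dim probe) with plain subtraction, the net intensities and the matrix values (0.437%, 0.396% and 0.414% of all genes). Genes with a single dye brighter numbered 2 with plain subtraction, no background correction, median centring, the net intensities and the matrix values (in that order 0.799%, 0.251%, 2.72%, 0.665% and 0.676% of all genes), and 0 with the empty-spot limit (0.149%). The correlation of the arrays was -0.71 with median centring. The interleukin median was 0.033 with print-tip loess, 0.038 with the net intensities, 0.051 with the matrix values and 0.041 over all probes. The acute phase median was -0.016 with the net intensities and 0.016 above background in both channels or above empty spots. The acute phase count lower at 0.32 was 1 with plain subtraction, the net intensities and the matrix values (0.67%, 0.647% and 0.554% of all genes). The count lower in the list of other cytokines was 0 with print-tip loess, the net intensities and the matrix values (0.262%, 0.647% and 0.554% of all genes). The cause of these moves was not tested. Each array alone gave 6 to 12 members higher (4.57% to 6.76% of all genes) and 9 to 12 lower (5.76% to 9.49%) at 0.32, 0 to 4 higher (0.303% to 0.67%) and 1 to 2 lower (0.618% to 2.41%) at 1.5-fold, an interleukin median of 0.053 to 0.061, and list medians of -0.021 to 0.013 (signalling), -0.027 to 0.025 (other cytokines) and 0.0042 to 0.020 (acute phase). At 0.32, single arrays gave 1 to 2 higher and 1 to 2 lower in the signalling list, 4 higher and 2 to 3 lower among other cytokines, and 1 to 2 higher and up to 2 lower in the acute phase list. On 1 array a gene has to pass only there, so more pass by construction. No paired analysis was possible because a ratio is formed inside each array and each treatment has only 1 pool. Signal over background limits Cxcl16, Il4i1, Il15ra and Il7r.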
